A study of Drosophila melanogaster with 2 samples.

Results

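The genes described here are pita itself and 9 other genes for insulator proteins: BEAF-32, CTCF, Cp190, su(Hw), mod(mdg4), ZIPIC, dwg, Ibf1 and Ibf2. They were chosen by name, and all 10 were found among the 13968 protein-coding genes of the Ensembl models used. For each gene, every summit inside the gene or within 1000 bp of one of its transcription start sites (TSSs) was taken from the deposited dm6 peak lists. The series is chromatin immunoprecipitation with sequencing of Pita in whole Drosophila melanogaster embryos, aged 0 to 24 hours, males and females pooled. The flies carried a stable transgene for Pita with GFP at its C terminus, and per the labels' description the chromatin was pulled down through the GFP, while the antibody field reads pita. There was 1 group of 2 libraries, biological replicates 1 and 3, and no untagged or mutant group, so no test between groups could be made. The labels do not say how the replicates were raised, which promoter drives the transgene or how much of the pita locus it carries. The number of copies of that locus was not tested, and the control named in the labels was not analysed here. Whole embryos hold many cell types, so binding in a few cells and weak binding in many cannot be told apart.

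Insulator proteins bind DNA at the borders of chromatin domains, where they can block an enhancer from acting across the border and help chromosomes to fold. In Drosophila several of them, Pita among these, are zinc-finger proteins that bind their own sequence and recruit a shared partner, Cp190. CTCF, su(Hw), ZIPIC and dwg (Zw5) are further zinc-finger DNA-binding proteins, and BEAF-32, Ibf1 and Ibf2 bind DNA through BED-type fingers. Cp190 and mod(mdg4) carry BTB domains, through which such proteins pair. The question put to these lists is where Pita sat at its own gene and at the genes for the proteins it works with.

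Sequences at summits are shown first, so that thresholded peaks near the genes can be set beside the weak candidates inside them. The list thresholded by the authors on the irreproducible discovery rate (IDR) was set beside the pooled list of candidates, which was deposited as peaks and background. The 1338 IDR summits were the 1338 strongest of the pooled list, with signals down to 143.9, against at most 143.7 outside. Membership thus followed pooled signal, and not every summit ranked alike in the replicates. That of pooled rank 877 ranked 786 in replicate 1 and 20820 in replicate 3. A 19 bp matrix for a sequence under Pita peaks, grown from 8-mers of an earlier analysis, was learned from the 1335 IDR summits outside the 10 genes. A summit was said to hold it when the best site within 50 bp scored above 6.40 log2 odds, a value that 5% of flank windows exceed. Of all 1338 IDR summits 53.7% held it (exact Clopper-Pearson 95% interval 51.0 to 56.4), against 7.41% of the 28662 other pooled candidates (7.11 to 7.72). The matrix was learned from 1335 of these IDR summits and from none of the other candidates. The gap is thus partly built in, here and wherever shares of IDR summits with the sequence are given below. The windows below are the plus strand of dm6 from 50 bp before to 50 bp after the summit, 5′ to 3′, from the RefSeq sequence, with a site above the threshold in capitals. Where there is no such site, capitals mark GAGAG or GCATAC on either strand, and a window with neither has no capitals.

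Top2, IDR summit, chr2L:19453537-19453637: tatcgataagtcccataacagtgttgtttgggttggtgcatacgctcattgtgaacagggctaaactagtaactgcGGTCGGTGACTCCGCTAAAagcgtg
fs(1)h, IDR summit, chrX:8061528-8061628: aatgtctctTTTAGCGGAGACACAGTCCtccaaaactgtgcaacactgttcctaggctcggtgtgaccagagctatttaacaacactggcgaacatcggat
nearest IDR summit to mod(mdg4), chr3R:21386251-21386351: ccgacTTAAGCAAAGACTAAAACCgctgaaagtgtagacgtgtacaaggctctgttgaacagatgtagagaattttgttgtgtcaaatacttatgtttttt
nearest IDR summit to ZIPIC, chr3R:30022697-30022797: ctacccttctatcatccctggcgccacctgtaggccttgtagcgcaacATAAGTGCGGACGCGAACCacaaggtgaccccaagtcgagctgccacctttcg
nearest IDR summit to su(Hw), chr3R:14287090-14287190: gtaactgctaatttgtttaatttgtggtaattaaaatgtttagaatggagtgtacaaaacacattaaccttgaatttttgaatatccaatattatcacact
mod(mdg4), strongest candidate, chr3R:21378347-21378447: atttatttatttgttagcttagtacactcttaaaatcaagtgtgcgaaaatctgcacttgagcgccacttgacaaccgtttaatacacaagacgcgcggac
mod(mdg4), candidate 589 bp from its TSS, chr3R:21377940-21378040: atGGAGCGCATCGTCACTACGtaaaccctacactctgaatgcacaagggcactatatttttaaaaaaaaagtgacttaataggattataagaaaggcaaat
ZIPIC, strongest candidate, chr3R:30036350-30036450: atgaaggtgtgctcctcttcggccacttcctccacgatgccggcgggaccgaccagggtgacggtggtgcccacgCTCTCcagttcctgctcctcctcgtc
su(Hw), strongest candidate, chr3R:14306982-14307082: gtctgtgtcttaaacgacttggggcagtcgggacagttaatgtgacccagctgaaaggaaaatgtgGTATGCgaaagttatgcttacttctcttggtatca
CTCF, site at the strongest candidate, chr3L:7356526-7356544: CTTATCGATTTCTCGCAAC

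The first 4 of these sequences belong to IDR summits and scored 18.1, 16.1, 18.4 and 15.8 log2 odds. The IDR summit nearest to su(Hw) held no site, with a best score of 0.309. The strongest candidates at mod(mdg4), ZIPIC and su(Hw) held none either, at -0.667, 3.71 and -2.26. The second mod(mdg4) candidate scored 8.79, and that of CTCF 6.43, just above the threshold.

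Among the 10 genes, pita and BEAF-32 held IDR summits and the other 8 did not. The 2 genes make up 20.0% of the list (exact Clopper-Pearson 95% interval 2.52 to 55.6), and 7.95% of all protein-coding genes had an IDR summit by the same rule. The interval takes in the share of all genes, so no excess can be read from so short a list. A pooled candidate was present at 8 of the 10, against 65.5% of all protein-coding genes. The pooled list and each replicate list held exactly 30000 summits, and the weakest pooled signal was 26.3. Whether a gene has a candidate thus depends on the length of these lists. In the replicates taken alone, 7 of the 10 had a candidate of replicate 1 (67.3% of all protein-coding genes) and 8 had one of replicate 3 (65.1%). The presence of a candidate was thus common among genes in general. The median of the strongest pooled signal per gene, with genes without a candidate at 0, was 56.8 over the 10 genes and 33.4 over all protein-coding genes, and 7 of the 10 were at or above the median of all protein-coding genes. The median gene length was 2740 bp in the list and 2164 bp over all protein-coding genes; its part in this was not tested.

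**Figure D1:**
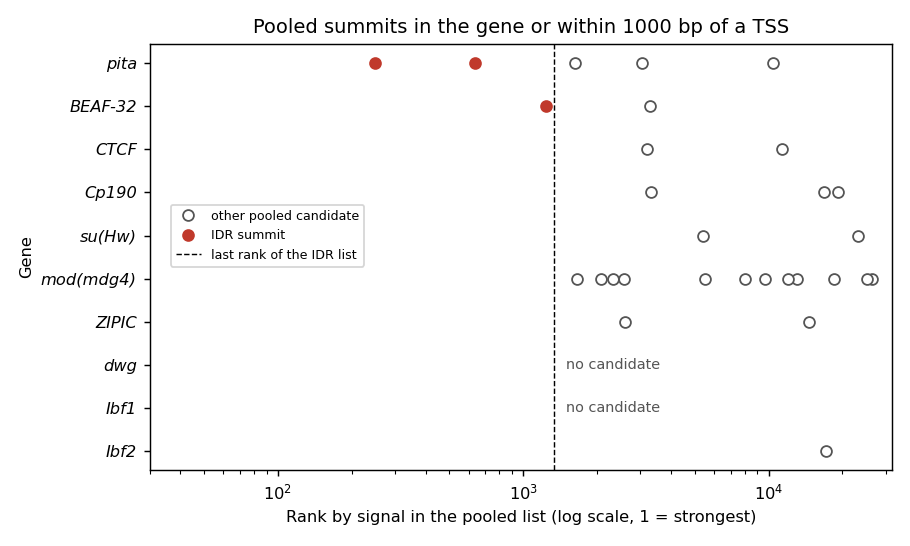
Each point is a summit of the pooled list in one of the 10 genes or within 1000 bp of its TSS, placed by its rank by signal (log scale, 1 is strongest). Filled points are IDR summits and the dashed line is rank 1338, the last of the IDR list: 2 summits of pita and 1 of BEAF-32 lie left of it, and dwg and Ibf1 have no point.

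The strongest summit of the list was at pita. The gene (FBgn0034878) lies at chr2R:23548967-23554712 on the minus strand and has 2 transcripts that start at different sites. Its leading IDR summit, at 23554191, lay in an intron, 521 bp downstream of a TSS. It had a pooled signal of 1352, the authors' own value for the peak, and ranked 249 of 1338. In replicate 1 the summit was at the same base, with a signal of 683 and rank 207. In replicate 3 it lay 2 bp away, with a signal of 651 and rank 295. Both libraries thus placed it well inside their first 1338 summits, and 97.8% of protein-coding genes had a lower strongest pooled signal.

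A second IDR summit at pita, 23554393, lay in a coding exon 319 bp from the TSS, with a pooled signal of 534 and rank 634. In replicate 1 it had a signal of 223 and rank 663, and in replicate 3 a signal of 252 and rank 715. It was 202 bp from the stronger summit and shared its deposited interval, 23553898 to 23554430, so both are summits of 1 called region of 533 bp. Such sharing was found for 115 of the 1217 distinct intervals in the IDR list. Another summit, at 23554611 in the 5′ UTR, ranked 1634 in the pooled list (signal 92.9) and 1709 in replicate 3 (54.2), with no replicate 1 summit within 100 bp. Signal at the start of pita was therefore highest at the intronic summit and lower at each summit nearer to the TSS.

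**Figure D2:**
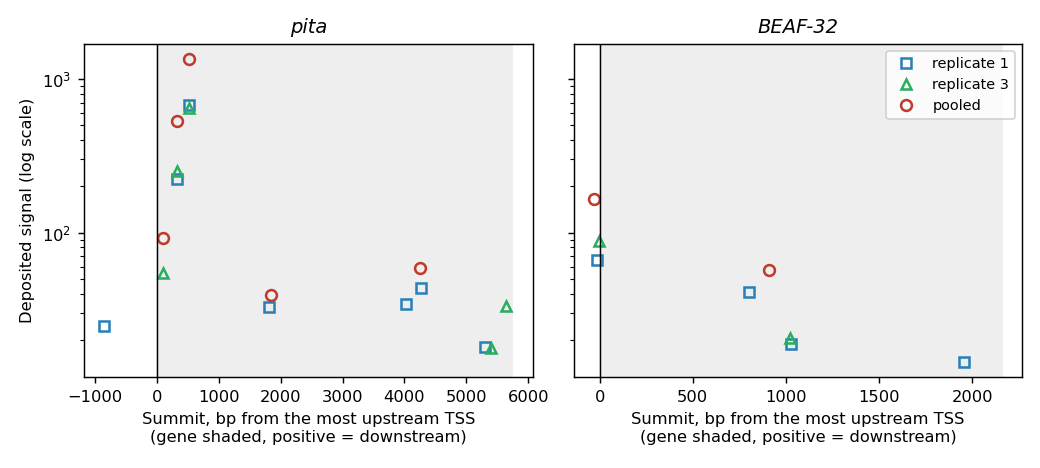
Deposited signal (log scale) of every summit at pita and BEAF-32 against its distance from the most upstream TSS, with the gene shaded and positive values downstream. Squares and triangles are replicates 1 and 3 and circles the pooled list; the pita summit 521 bp from the TSS stands highest in all 3.

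The leading pita summit held the 19 bp sequence, with a score of 9.67 and the site centre 22 bp from the summit. Of all IDR summits 51.9% had a lower score. It no longer counted at a threshold that 1% of flanks exceed (10.49). Among the 669 IDR summits of higher signal, where this one belongs, 76.1% held the sequence at the main threshold. The second summit did not hold it, with a best score of 4.76.

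A higher-scoring match lay further into pita, beside a weak candidate. A site centred at 23550410 scored 12.1, 48 bp from a pooled summit at 23550458 in a coding exon and so not wholly inside its window. That summit had a pooled signal of 58.4 and rank 3046, and lay 1093 bp from the more downstream pita TSS. The TSS of Dcp-1, a caspase gene on the other strand, was 855 bp away. In replicate 1 a summit 34 bp from the site had a signal of 43.7 and rank 1611. The nearest summit of replicate 3 was 1098 bp from the site. This candidate was thus seen in replicate 1 and in the pooled list alone. A further pooled candidate, at 23552871 in an intron, had a signal of 39.1 and rank 10420, and ranked 2555 in replicate 1 (signal 32.9) with no replicate 3 summit within 100 bp.

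BEAF-32 (FBgn0015602) lies at chr2R:14770469-14772630 on the plus strand, and its protein is known for binding the scs′ element of the heat shock locus. Its IDR summit, 14770439, was 30 bp upstream of a TSS, with a pooled signal of 166.5 and rank 1241. In replicate 1 the summit lay 13 bp to the right, with a signal of 66.6 and rank 1246. In replicate 3 it lay 25 bp to the right, with a signal of 88.2 and rank 1308. The peak was thus close to the end of the IDR list by pooled signal, and ranked near 1338 in each replicate list. In pooled signal the lowest value in the IDR list was 143.9 and the highest outside it 143.7. No site passed the matrix threshold (best score 4.86), and 31.4% of the 669 IDR summits of lower signal, where this one belongs, held one.

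A second BEAF-32 candidate, at 14771380 in the 5′ UTR, had a pooled signal of 56.7 and rank 3278. No summit of either replicate lay within 100 bp. Just beyond, replicate 1 had one at 14771271 (signal 41.0, rank 1707) and another at 14771494 (signal 18.9, rank 14551), and replicate 3 had one at 14771489 (signal 20.5, rank 15335). Both libraries thus held weak summits on its downstream side. CGATA, the core that BEAF-32 itself binds, lay within 50 bp of the pooled candidate. It also lay under 20.7% of IDR summits and 11.6% of other pooled candidates, so its presence at one candidate is not particular to this gene.

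The protein-coding genes nearest to pita in the strongest IDR signal within 1000 bp of a TSS were CkIIalpha-i3 and CG10011. Their signals were 1348 and 1360, against 1352 at pita, among 944 genes compared. For BEAF-32 they were Nhe3, a sodium-hydrogen exchanger gene, at 165.8 and Pgant1, a glycosyltransferase gene, at 165.4. They share a signal level with the member and nothing else was compared.

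**Figure D3:**
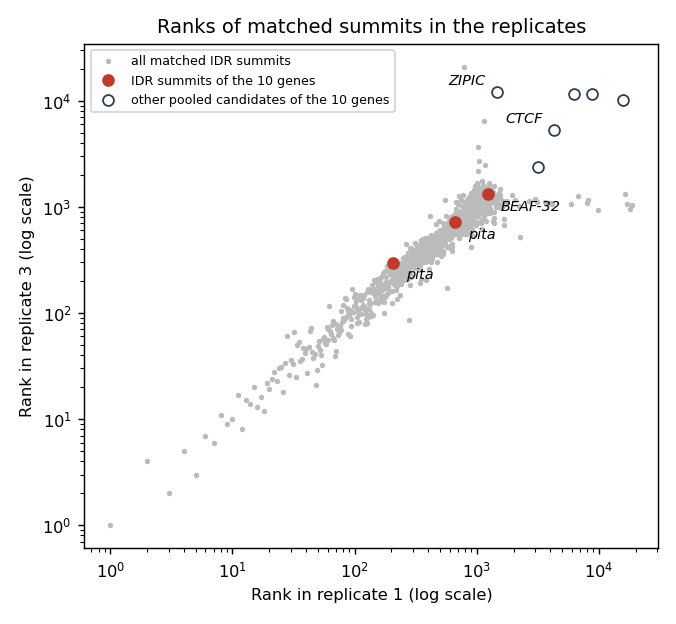
Rank in replicate 1 against rank in replicate 3 (both log scale) for IDR summits matched within 100 bp in both (grey) and for summits of the 10 genes. The pita and BEAF-32 IDR summits (filled) lie on the band of the other IDR summits, while the candidates outside the IDR list (open) rank beyond 1338 in replicate 1 and in replicate 3.

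The shared partner gene Cp190 had weak candidates only. It (FBgn0000283) lies at chr3R:15270432-15275241 on the minus strand, head to head with CG4338, whose TSS is 281 bp away. Its strongest pooled candidate, 15274693 in the 5′ UTR, had a signal of 56.4 and rank 3327, and no summit of either replicate lay within 100 bp. Around the same promoter the strongest summit of replicate 1 was 15274870, with a signal of 26.6 and rank 4830, and that of replicate 3 was 15274310, with a signal of 29.5 and rank 5377. Both replicates had a summit at 15274545, with a signal of 22.0 and rank 9183 in replicate 1 and 21.4 and rank 13770 in replicate 3. The libraries thus both held weak summits near the Cp190 start, of which this one was at the same base in each. Its second pooled candidate, 15270585 in the 3′ UTR, had a signal of 33.2 and rank 16836. Matches above the stricter threshold lay in the gene at 15270990 (score 13.6) and 15273721 (12.3). The nearest summits in any of the 3 candidate lists were 287 bp and 589 bp from them. These matches thus had no candidate summit on them.

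The other BTB gene, mod(mdg4), a partner of su(Hw) at the gypsy insulator, is the longest of the 10 genes and had more candidates than any other. The gene (FBgn0002781) spans chr3R:21350846-21377401 on the minus strand and is known for joining exons from both strands by trans-splicing. Its 22 transcripts share 1 annotated TSS. It held 12 pooled candidates in the 28.6 kb of the gene with 1 kb on either side, with signals between 27.9 and 91.8 and ranks between 1652 and 26303. Summits of both replicates lay within 100 bp of 3 of the 12, beside 18.8% of all pooled candidates outside the IDR list. Another 8 had one in 1 replicate (6 of these in replicate 3) and 1 in neither. A share from 12 candidates is not read as differing from that of candidates in general.

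The strongest mod(mdg4) candidate, 21378397, lay upstream of the gene, 996 bp from its TSS and 580 bp from that of tin, the homeobox gene of the heart. It had a pooled signal of 91.8, rank 3178 in replicate 1 (signal 30.4) and rank 2388 in replicate 3 (signal 40.6). The next, 21354315 in a coding exon 23086 bp from the TSS, had a pooled signal of 71.1 and ranked 2082, with rank 2734 in replicate 1 (signal 32.1) and no replicate 3 summit within 100 bp. Replicate 3 had a summit inside the same called interval, at 21354466, with a signal of 42.8 and rank 2190, which was matched to a weaker pooled candidate at 21354535. The third, 21361220 in an intron, had a pooled signal of 66.4 and rank 2321, but ranked 8730 in replicate 1 and 11500 in replicate 3. The order of these candidates thus differed between the lists.

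The candidate at 21377990, 589 bp from the mod(mdg4) TSS, held the matrix sequence. It had a pooled signal of 63.0 and rank 2573, and ranked 1665 in replicate 3 (signal 55.8), with no replicate 1 summit within 100 bp. The best match of a mod(mdg4) candidate, 12.1, was at 21366251, in an intron of mod(mdg4) where pre-mod(mdg4) units overlap. That candidate had a pooled signal of 36.4, ranked 3807 in replicate 3 and had no replicate 1 summit within 100 bp. Both mod(mdg4) candidates with the sequence were thus matched in replicate 3 and not in replicate 1.

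Among the zinc-finger genes, CTCF (FBgn0035769) lies at chr3L:7353578-7356713 on the minus strand. Its strongest candidate, 7356508 in an intron 205 bp from the TSS, had a pooled signal of 57.1 and rank 3210. It ranked 4279 in replicate 1 (signal 27.6) and 5295 in replicate 3 (signal 29.6), so both libraries held it as a weak candidate. A stronger summit of replicate 1, at 7356262 with a signal of 50.2 and rank 1434, was absent from the pooled list. The second pooled candidate, 7356892, lay 179 bp upstream of the TSS with a signal of 38.1 and rank 11328, and ranked 8625 in replicate 3 (signal 25.1) with no replicate 1 summit within 100 bp. The CTCF site shown above contains CGATA on the minus strand.

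ZIPIC, whose protein was named for its contact with Cp190, has the identifier FBgn0039740 and lies at chr3R:30035240-30036870 on the minus strand. Its strongest candidate, 30036400, lay in a coding exon 470 bp from the TSS, with a pooled signal of 62.7 and rank 2602. In replicate 1 it ranked 1451 (signal 49.2) and in replicate 3 it ranked 12073 (signal 22.4). This was the largest gap between the replicates, as a ratio of ranks, among the 6 candidates outside the IDR list that both held. GAGAG lay within 50 bp of it. A second candidate, 30035629 in a coding exon, had a signal of 34.9 and rank 14667. It ranked 11468 in replicate 1 and had no replicate 3 summit within 100 bp.

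The gene su(Hw) (FBgn0003567), for the protein that binds the gypsy insulator, lies at chr3R:14304455-14308589 on the minus strand, head to head with Polr2I, an RNA polymerase subunit gene, at 500 bp. It had no candidate within 1000 bp of its TSS in any list. Its strongest, 14307032 in an intron, was 1557 bp from the TSS with a pooled signal of 48.0 and rank 5398, and ranked 6275 in replicate 1 and 11549 in replicate 3. GCATAC, a part of the element su(Hw) is known to bind, lay under this candidate, as it did under 3.98% of other pooled candidates and 5.38% of IDR summits. A second pooled candidate, 14307231, had a signal of 29.5 and rank 23129, with no summit of either replicate within 100 bp.

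For dwg (FBgn0000520), at chrX:2727698-2730042, whose protein binds the scs element, no list held a summit in the gene or within 1000 bp of its TSS. The same was true of Ibf1 (FBgn0037670), at chr3R:9258964-9260400. Ibf1 and Ibf2 are neighbours that start head to head, 463 bp apart. Ibf2 (FBgn0037669), at chr3R:9257727-9258501, had 1 pooled candidate, at 9257583 downstream of the gene, with a signal of 33.1 and rank 17121. It had a rank of 16226 in replicate 3 and no summit in replicate 1, and the TSS of CG16736 was 133 bp away. The promoter shared by the pair therefore carried no candidate in any list.

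Over the 26 pooled candidates of the 10 genes outside the IDR list, the signal had a median of 41.3, and 6 (23.1%) had a summit in both replicates. Over all 28662 such candidates the median was 34.1 and the share 18.8%. The matrix sequence lay under 3 of the 26 (11.5%), against 7.41% of all. These values describe 26 candidates from 8 genes, 12 of them from mod(mdg4). Counted along the DNA at the stricter threshold, the 10 genes with 1 kb on either side held 6 matches in 72.7 kb, or 0.0825 per kb, against 0.127 per kb over all protein-coding genes. Of the 6, 3 lay in mod(mdg4), 2 in Cp190 and 1 in pita, and the other genes held none. Among all protein-coding genes, measured in the same way, 50.5% held a match. CGATA lay under 3 of the 29 pooled summits, GAGAG and GCATAC under 1 each, and the other 4 motifs searched under none. Under IDR summits the share was 4.19% for CTCAAACC, 3.81% for CACAAACC, 5.01% for AGATGGCG, 3.66% for AGGTGGCG and 8.30% for GAGAG, against 0.181%, 0.328%, 0.429%, 0.380% and 11.1% of other pooled candidates. All of these but GAGAG were found in an earlier analysis of these same peaks, so their excess under IDR summits was selected for.

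**Figure D4:**
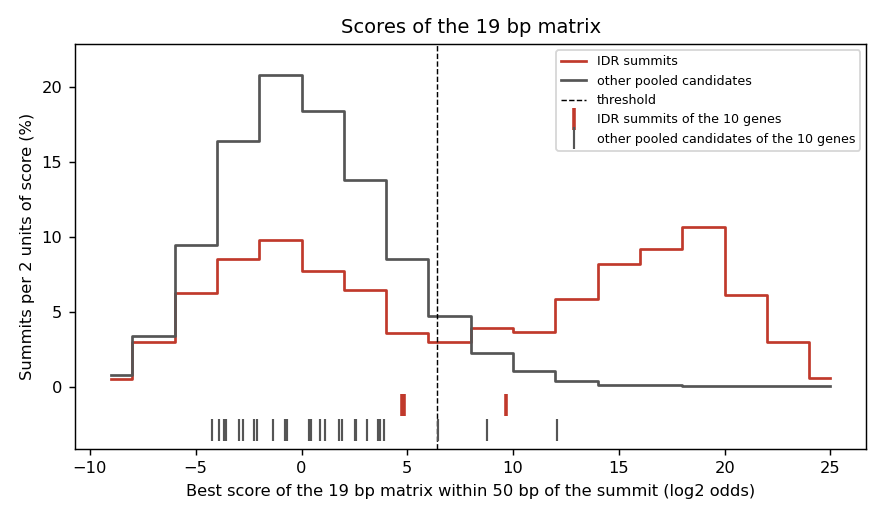
Best score of the 19 bp matrix (log2 odds) within 50 bp of the summit, as the share of summits per 2 units of score, for IDR summits and for other pooled candidates; ticks mark the summits of the 10 genes. One of the 3 IDR summits of these genes and 3 of their 26 other candidates lie right of the dashed threshold.

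The 8 genes without an IDR summit lay between 8900 and 203032 bp from one, measured from the TSS. The nearest was at mod(mdg4), where an intergenic summit at 21386301, 2579 bp from the TSS of the homeobox gene bap, had a signal of 928 and ranked 388 in replicate 1 and 411 in replicate 3. ZIPIC was 14123 bp from a promoter summit of Axn, a scaffold of Wnt signalling, with a signal of 1496 and ranks of 214 in replicate 1 and 199 in replicate 3. For su(Hw) the nearest, at 21449 bp, was the promoter summit of trx, a Trithorax group methyltransferase gene, with a signal of 701 and ranks of 490 and 530 in replicates 1 and 3. These distances are within the range of genes in general, of which 20.6%, 28.0% and 37.2% were nearer to an IDR summit than mod(mdg4), ZIPIC and su(Hw).

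Ibf2 and Ibf1 shared their nearest IDR summit, 43788 and 44251 bp away in an intron of pum with a signal of 147 and ranks of 1079 in replicate 1 and 708 in replicate 3. For Cp190 it was the promoter summit of Cyfip at 57983 bp, with a signal of 1319 and ranks of 243 and 271 in replicates 1 and 3. CTCF and dwg were farther from any IDR summit, at 153865 and 203032 bp, and 91.6% and 95.6% of protein-coding genes were nearer. The CTCF one lay 408 bp from the TSS of CG7546, with a signal of 884, and that of dwg in an intron, 7019 bp from a TSS of trol, with a signal of 381. Of the 7 distinct summits nearest to these 8 genes, those of CTCF, Cp190, mod(mdg4), ZIPIC and dwg held the matrix sequence. It was held by 53.7% of all IDR summits and by 76.1% of the 669 of higher signal. The 7 were among the summits the matrix was learned from, and nothing particular to them is read from this. The median distance was 32618 bp over the 10 genes and 34545 bp over all protein-coding genes, and 3 of the 10 lay within 10 kb of an IDR summit, beside 22.0% of all.

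**Figure D5:**
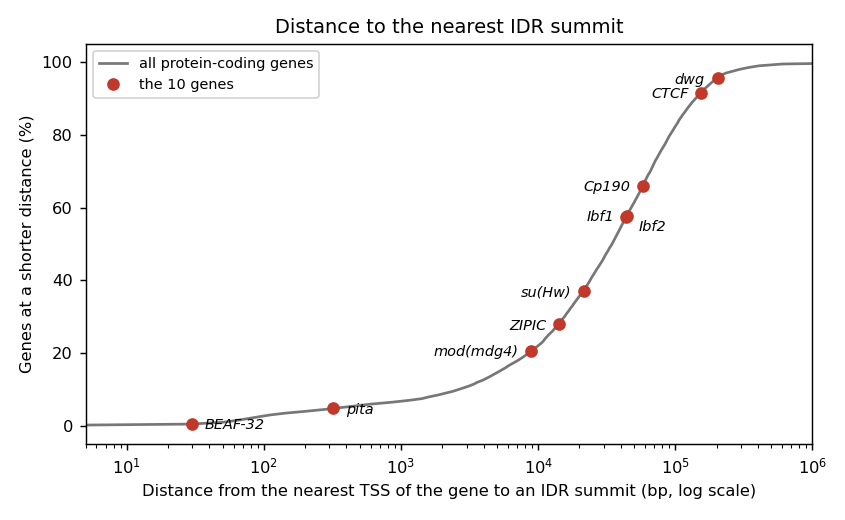
Share of protein-coding genes nearer to an IDR summit (percent) against the distance from the TSS to the summit (bp, log scale), with the 10 genes marked on the curve of all protein-coding genes. BEAF-32 and pita lie below 1000 bp, and CTCF and dwg at 153865 and 203032 bp.

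A wider list of 22 genes for other architectural proteins was examined by the same rule, and 21 were found by symbol. IDR summits were present at Top2 and fs(1)h, which is 9.52% of the 21 (exact Clopper-Pearson 95% interval 1.17 to 30.4), beside 7.95% of all protein-coding genes. Top2, the gene for topoisomerase II, had its summit 97 bp upstream of the TSS, with a signal of 2473 and ranks of 44 in replicate 1 and 72 in replicate 3. The summit of fs(1)h, which encodes a BET bromodomain protein, had a signal of 1816 and lay 142 bp from its TSS and 67 bp from that of mys, an integrin gene in head-to-head order. A pooled candidate without an IDR summit was present at 14 others, among them pzg, whose best candidate ranked 1523. That candidate lay 290 bp upstream of the pzg TSS and nearer, at 153 bp, to the TSS of CG12974. With Top2 and fs(1)h counted, 76.2% of the 21 had a pooled candidate, beside 65.5% of all protein-coding genes. The median gene length was 4651 bp in this list and 2164 bp over all protein-coding genes, and its part was not tested. Both Top2 and fs(1)h had higher signal and higher matrix scores than the pita summit. Their summits were among those the matrix was learned from and the pita summit was not, so these scores are not on equal terms.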

How the data were processed

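Chromatin immunoprecipitation was done on embryos of the Pita-GFP line, with sonication to 200 to 800 bp per the labels. The deposited notes state that candidates were called against a control alignment, in each replicate and in both pooled, and that the IDR list was derived from these 3 lists. No source used here gives the aligner, the caller of the peaks or the threshold on IDR. The signal (one value per peak) was used as the authors deposited it. Its scale is not stated, so ranks were compared between lists. The deposited lists hold no read counts, so depth is unknown, and intervals cover the counting of genes and summits only.

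From the 4 dm6 lists, summits were assigned to Ensembl release 115 genes without transposable elements, and to the nearest TSS of any gene. A summit within 500 bp of a TSS was a promoter summit, and summits within 100 bp were matched between lists. The 19 bp matrix was grown in 8 rounds from sites of CTCAAACC or of CACAAACC with the bases before them. Flank windows were centred 250 bp from a summit and over 200 bp from any IDR summit. Motifs were searched on both strands: the 8-mers above, AGATGGCG and its variant AGGTGGCG, then CGATA (BEAF-32), GAGAG (GAGA factor) and finally GCATAC. Gene assignment and the matrix were tested on simulated data. The genes, lists and motifs were chosen with earlier results of these data known. All 10 genes are named whatever their values, with their IDR summits, their 2 strongest pooled candidates, protein-coding genes that start within 1000 bp, the nearest IDR summit and the 2 genes most alike in IDR signal. Weaker candidates with a matrix site or in a single list were added after their values were seen. Other architectural genes are named where they hold an IDR summit; pzg was added after its values were seen. Of the 22 symbols, Mzfp1 was not matched. The dm3 lists were not used, since the gene models are on dm6. Sequences are from arms other than 2R. The work used pandas 2.3.3 and SciPy 1.17.1 with NumPy 2.4.6 under Python 3.11.15.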

Additional observations from a re-analysis of the deposited data

How the results depend on the processing

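The count of 2 of the 10 genes with an IDR summit held with windows of 500 and 2000 bp and without the gene body. It also held with neighbouring summits dropped and with RefSeq models. No IDR list can be made from 1 replicate, so with either left out 1338 summits of the other replicate took its place. The same 2 genes were found there, with BEAF-32 at ranks 1246 and 1308 in replicates 1 and 3. The count was 1 among the 669 IDR summits of higher signal, where BEAF-32 was lost and pita was still present. The share of all protein-coding genes moved to 7.102% with 500 bp, 9.615% with 2000 bp, 6.758% without the gene body and 5.105% among those 669 summits. The matrix count at IDR summits of the 10 genes was 0, against 1, at the stricter threshold, through pita. The counts for pooled candidates, for summits in both replicates and for the other architectural genes stayed within 1.5 times when 1 setting was changed at a time. With a 500 bp window and no gene body together, 5 of the 10 genes had a pooled candidate, against 8 in the main run. The share of all protein-coding genes was then 27.4%. Depth is unknown, so weak binding at genes without a candidate was not detectable here rather than shown to be absent. No paired analysis was possible because there is 1 group.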
